A study of Mus musculus with 6 samples.

Results

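The genes of polyamine synthesis and breakdown were examined in mouse natural killer (NK) cells. A list of 10 genes was taken (Odc1, Srm, Sms, Amd1, Sat1, Smox, Paox, Oaz1, Oaz2 and Azin1), and a gene counted as measured where the array platform's annotation tied a probe set to its symbol alone. On that rule 6 of the 10 were measured, among 19943 genes in all: Odc1, Srm, Azin1, Oaz2, Smox and Sat1. Sms and Oaz1 were read by probe sets that carry a second gene symbol as well, and Amd1 and Paox were listed for no probe set used here, so the 4 have no value of their own. The 6 arrays were Affymetrix arrays, with 3 of IL-18 generated NK cells and 3 of unstimulated NK cells, each from a separate preparation per the design text. IL-18 generated cells were NK1.1 isolated cells cultured overnight with 300 IU of IL-2 and 25 ng/ml of IL-18. From live cells positive for NK1.1 and negative for CD3, the IL-18 generated cells were then sorted on c-kit, without CD11b, and the unstimulated cells on CD11b, without c-kit. The labels do not say whether the unstimulated cells had been cultured or had received IL-2, nor the strain and age of the mice. IL-18, IL-2, culture and the sort gate therefore cannot be told apart in any difference below.

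Polyamines (putrescine, spermidine and spermine) are small, positively charged molecules that bind nucleic acids and that dividing cells need in quantity. Odc1 makes putrescine from ornithine, Srm and Sms add aminopropyl groups to give spermidine and spermine, and Amd1 supplies those groups from S-adenosylmethionine. Antizymes (the Oaz genes) bind the Odc1 enzyme and send it to the proteasome, and Azin1 binds antizymes and so protects the enzyme. Breakdown runs through Sat1, which acetylates polyamines, Paox, which oxidises the acetylated forms, and Smox, which turns spermine directly into spermidine. In lymphocytes, induction of Odc1 is a known part of activation.

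In the IL-18 generated cells, both measured synthesis genes and the spermine oxidase gene were higher than in the unstimulated cells. Odc1 rose 5.45-fold, Srm 5.59-fold and Smox 8.34-fold, while Azin1 rose by much less, 1.42-fold. Sat1 fell, to 0.613 of the unstimulated level, and Oaz2 did not pass the test. Of the 6 measured genes, 4 rose and 1 fell at a limma adjusted p below 0.05, where 19.7% of all genes tested rose and 16.7% fell. The median log2 change of the 6 was 1.48, against -0.06 over all genes. With a log2 change of at least 1 required as well, 3 of the 6 were higher and 0 lower, against 3.62% and 3.24% of all genes. The groups did not overlap for 5 of the 6, a separation that 48.6% of all genes showed. All values were read as log2, since the sources used state no base, and the folds rest on that reading. Each value is expression minus the probe set's own median over the 6 arrays. Differences between groups can therefore be read but levels cannot, and no gene's level can be set against another's. Where a single probe set's groups do not overlap, this centring makes the 2 arrays nearest each other mirror images around 0.

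The promoters of Odc1, Smox and Sat1 are shown because 1 gene of synthesis and 2 of breakdown that changed can be set side by side in them. They are from RefSeq (build GRCm38.p6) and hold the 250 bases before the annotated start of transcription, at chr12:17544623-17544872 on the plus strand for Odc1, chr2:131491612-131491861 on the plus strand for Smox and chrX:155216450-155216699 on the minus strand for Sat1. Capitals mark GC boxes, the letters GGGCGG or their reverse complement CCGCCC.
Odc1: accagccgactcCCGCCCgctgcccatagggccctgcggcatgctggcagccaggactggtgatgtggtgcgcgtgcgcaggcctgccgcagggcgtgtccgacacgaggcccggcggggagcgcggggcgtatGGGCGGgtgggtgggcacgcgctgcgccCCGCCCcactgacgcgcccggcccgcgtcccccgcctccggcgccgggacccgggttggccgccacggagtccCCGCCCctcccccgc
Smox: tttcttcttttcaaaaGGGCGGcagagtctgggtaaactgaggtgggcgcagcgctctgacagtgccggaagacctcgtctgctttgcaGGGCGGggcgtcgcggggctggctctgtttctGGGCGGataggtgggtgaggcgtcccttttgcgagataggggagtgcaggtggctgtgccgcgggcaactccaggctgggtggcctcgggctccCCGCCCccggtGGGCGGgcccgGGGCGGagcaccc
Sat1: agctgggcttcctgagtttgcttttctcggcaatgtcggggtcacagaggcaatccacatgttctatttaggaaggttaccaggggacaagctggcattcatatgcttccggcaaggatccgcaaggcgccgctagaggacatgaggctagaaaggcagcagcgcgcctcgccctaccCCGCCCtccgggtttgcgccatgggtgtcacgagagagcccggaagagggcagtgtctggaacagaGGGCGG
GC boxes, a motif bound by factors such as Sp1, occurred 4 times in the Odc1 window, 6 times in that of Smox, 2 times in that of Sat1 and 3 times in that of Oaz2. At least 1 was present in 32.7% of 32851 mouse promoter windows of the same length. The E-box CACGTG, bound by MYC and MAX, has the same letters on both strands and stood in none of these 4 windows (0 matches each), nor did TATAAA or its reverse complement TTTATA, as against 6.02% and 12.4% of all windows. No motif overlapped another in the 3 windows shown. The Odc1 window was 80% G and C, that of Smox 68%, that of Sat1 59.6% and that of Oaz2 58%. These counts describe letters in a short window only, and bases after the start were not searched. Windows of Sms, Amd1, Paox and Oaz1, which have no value of their own here, were searched too. An Sms window (chrX:157492288-157492537) held 1 E-box, and the others held 0. GC boxes numbered 0 in that Sms window and in that of Oaz1, and 1 to 4 in the others. Srm and Azin1 had no entry among the promoters used, so their windows were not searched.

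Synthesis genes come first. Odc1, the rate-limiting enzyme of the pathway, had values of 1.07, 1.24 and 1.34 on the IL-18 arrays, against -1.13, -1.26 and -1.30 on the unstimulated arrays. The lowest IL-18 array lay 2.20 above the highest unstimulated one, while arrays of 1 group differed by at most 0.27. The log2 change was 2.45 ± 0.09 (SE, 3 arrays in each group, here and for every change that follows), with a limma adjusted p of 3.79e-08 after Benjamini-Hochberg adjustment over all genes. By size of increase Odc1 stood at rank 61 of the 19943 genes. It was the only one of the 6 with more than 1 probe set. Probe set 10394770 changed by 2.63 ± 0.10 and probe set 10582295 by 2.26 ± 0.10, so both gave the same direction at similar size.

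Srm, spermidine synthase, had values of 1.11, 1.20 and 1.32 on the IL-18 arrays, against -1.21, -1.11 and -1.49 on the unstimulated arrays. The groups were apart by 2.22, and unstimulated replicate 3 was the lowest of the 6. The log2 change was 2.48 ± 0.11 (limma adjusted p 8.16e-08), at rank 60, next to Odc1. No difference between the changes of Odc1 and Srm was detected. The difference of their relative values, Srm minus Odc1, averaged 0.00 ± 0.04 on IL-18 arrays and -0.04 ± 0.17 on unstimulated arrays (SD, n = 3). Its shift between groups was 0.04, with p = 0.8 in a two-sided exact permutation test, in which 3 arrays against 3 cannot go below 0.1.

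**Figure D1:**
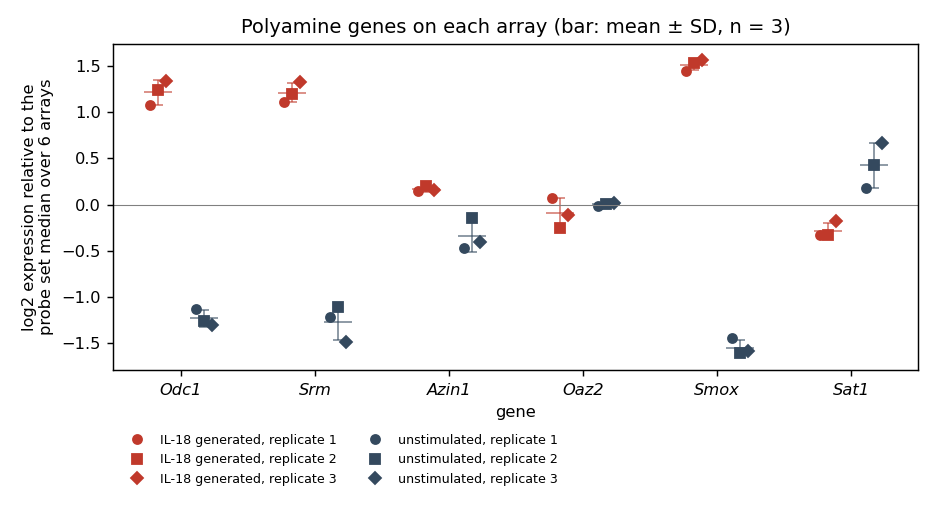
Log2 expression of the 6 measured polyamine genes on each array, relative to the probe set median over the 6 arrays. IL-18 arrays are in red at the left of each pair and unstimulated arrays in dark blue at the right, with bars for mean and SD (n = 3); Odc1, Srm and Smox are above 1.0 on every IL-18 array and below -1.0 on every unstimulated one, Azin1 and Sat1 are apart by 0.29 and 0.36, and Oaz2 overlaps.

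The regulators of Odc1 moved by less. Azin1, the antizyme inhibitor, is a relative of Odc1 that has lost its enzyme activity. It had values of 0.14, 0.20 and 0.15 on the IL-18 arrays, against -0.47, -0.14 and -0.40 on the unstimulated arrays. The IL-18 arrays lay within 0.06 of each other, and unstimulated replicate 2 was the nearest to them, 0.29 below. The log2 change was 0.51 ± 0.09, with a limma adjusted p of 0.0015. Azin1 stood at rank 2208 by size of increase, with 11.1% of all genes above it.

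Oaz2, a widely expressed antizyme, had values of 0.08, -0.25 and -0.11 on the IL-18 arrays, against -0.01, 0.01 and 0.02 on the unstimulated arrays. The unstimulated arrays were nearly equal, and the IL-18 arrays lay on both sides of them. Its log2 change was -0.10 ± 0.09 (limma adjusted p 0.407), with a 95% interval of -0.31 to 0.10. An increase of the size seen for Azin1 is outside that interval. A probe set that detects no transcript would also give a change near 0, and no detection calls were used here. Azin1 minus Oaz2 averaged 0.26 ± 0.19 on IL-18 arrays and -0.35 ± 0.17 on unstimulated arrays (SD, n = 3), a shift of 0.61 with p = 0.1 in the two-sided exact permutation test, the smallest it can give.

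Breakdown genes moved in opposite directions. Smox, spermine oxidase, had values of 1.45, 1.53 and 1.57 on the IL-18 arrays, against -1.45, -1.61 and -1.58 on the unstimulated arrays. These groups were the farthest apart of the 6 genes, by 2.89, with ranges of 0.12 and 0.16 within them. The log2 change was 3.06 ± 0.08 (limma adjusted p 5.2e-09), at rank 24 of all genes. Quantile normalization between arrays, applied to the centred values and not to expression levels, gave a larger change for Smox, 3.68. At an adjusted p below 0.05 and a log2 change of at least 2, a size that Smox, Srm and Odc1 passed, 0.496% of all genes were higher. Smox minus Odc1 was 0.37, 0.30 and 0.23 on the IL-18 arrays, against -0.32, -0.35 and -0.28 on the unstimulated arrays. Smox therefore changed by 0.61 more than the mean of the 2 Odc1 probe sets on these arrays, with no overlap. The two-sided exact permutation test gave p = 0.1, again the smallest it can give. Those 2 probe sets changed by 2.63 and 2.26, so the size of this excess depends on the probe set used.

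**Figure D2:**
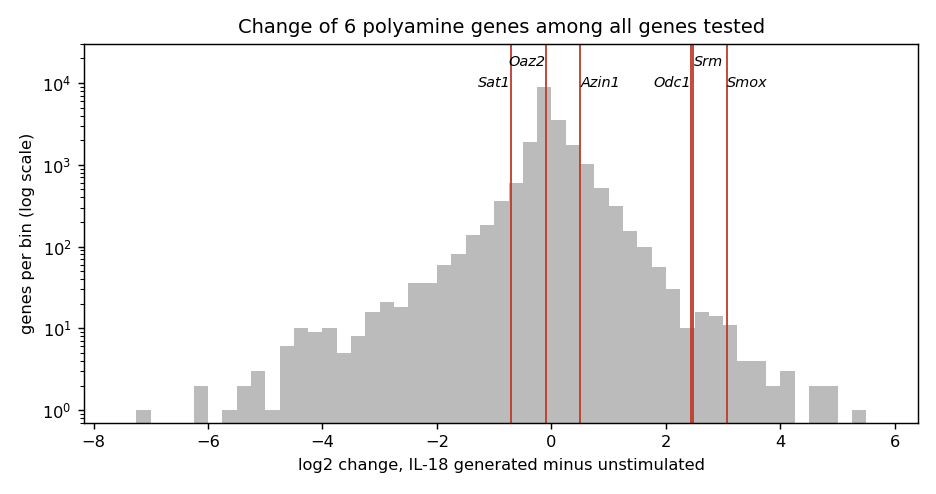
Histogram of the log2 change (IL-18 generated minus unstimulated) of all 19943 genes tested, with the number of genes per bin on a log scale and a red line at each polyamine gene. Odc1, Srm and Smox lie in the far right tail at 2.45, 2.48 and 3.06, while Oaz2 at -0.10 lies in the main peak.

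Sat1, spermidine/spermine acetyltransferase, starts the route by which polyamines are acetylated and exported or oxidised. It had values of -0.33, -0.33 and -0.18 on the IL-18 arrays, against 0.18, 0.43 and 0.66 on the unstimulated arrays. The groups were apart by 0.36, less than the 0.48 that separated the unstimulated arrays among themselves. The log2 change was -0.71 ± 0.12 (limma adjusted p 7e-04), and 5.39% of all genes had a lower one. Odc1 minus Sat1 was 1.40, 1.57 and 1.52 on the IL-18 arrays, against -1.31, -1.69 and -1.97 on the unstimulated arrays. That shift of 3.15 between an enzyme that makes polyamines and one that removes them follows from their 2 opposite changes. As both genes already separated the groups, in opposite directions, the two-sided exact permutation test could give only p = 0.1. It therefore adds no support.

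Markers of other cell types moved with Sat1. All 8 measured monocyte and macrophage markers fell, with a median log2 change of -2.63 and Lyz2, the lysozyme gene, at -7.16 ± 0.15. Their mean relative value was -1.70 to -1.53 on the IL-18 arrays and 1.41 to 1.91 on the unstimulated ones. All 8 neutrophil markers fell too, with a median of -2.11 and means of -1.12 to -1.01 on IL-18 arrays against 0.95 to 2.06 on unstimulated arrays. Unstimulated replicate 3 was highest for Sat1 and for the monocyte list, and replicate 2 for the neutrophil list. Among the unstimulated arrays, replicate 1 was lowest for Sat1 (0.18) and for the neutrophil list (0.95). For the monocyte list the lowest was replicate 2 (1.41, against 1.46 on replicate 1). The values are relative, so which of these markers are near 0 in either group cannot be read. Their part in the fall of Sat1 was not tested, and in such bulk samples fewer cells of a type and less RNA per cell cannot be told apart. Of the NK cell markers, such as Ncr1, Klrb1c and Tbx21, all 8 fell as well (median -0.92, means of -0.67 to -0.57 on IL-18 arrays against 0.52 to 0.74). Of 6 T cell markers, 3 rose and 3 did not pass, and all 5 measured B cell markers fell, where 19.7% of all genes rose and 16.7% fell. The 3 that rose were the CD3 chain genes, although both groups were sorted as negative for CD3. They moved in the direction of Odc1, Srm and Smox, and their part in those changes was not tested. The number of B cell markers that fell was 2 with arrays centred on their medians, 3 without IL-18 replicate 1 or 2, and 2 without IL-18 replicate 3 or unstimulated replicate 1 or 3.

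**Figure D3:**
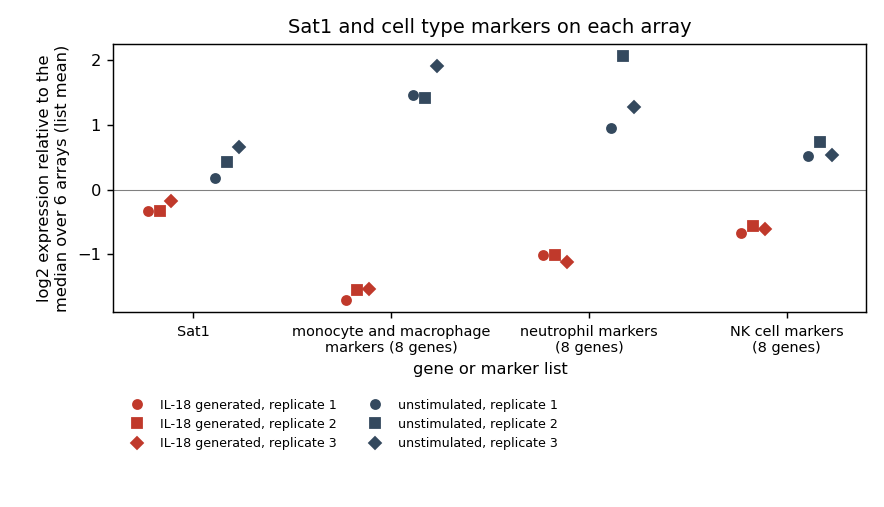
Relative log2 expression of Sat1 on each array beside the mean of 3 marker lists of 8 genes each, with IL-18 arrays in red at the left and unstimulated arrays in dark blue at the right. Sat1 and all 3 lists are below 0 on every IL-18 array and above 0 on every unstimulated array, the lists by more than Sat1 except for the NK markers of unstimulated replicate 3, at 0.53 against 0.66.

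Genes that feed the pathway or move its products were followed as a further list of 14, of which 13 were measured. Its median log2 change was -0.02, and 4 members rose, 3 fell and 6 did not pass, where 19.7% of all genes rose and 16.7% fell. Slc7a1, a transporter that brings in arginine, the source of ornithine, rose most. It had values of 1.29, 1.07 and 1.25 on the IL-18 arrays, against -1.08, -1.24 and -1.07 on the unstimulated arrays, a log2 change of 2.33 ± 0.09 (limma adjusted p 3.96e-08). Slc3a2, the heavy chain of several amino acid transporters, rose by 1.04 ± 0.09, and Slc7a2, another arginine transporter, by 0.34 ± 0.11 (limma adjusted p 0.0279). The call of Slc7a2 was lost in 4 of the 6 fits that left out an array, up to an adjusted p of 0.113. The genes of arginase, which turns arginine into ornithine, gave changes of -0.02 ± 0.08 for Arg1 and 0.09 ± 0.08 for Arg2, and neither passed (limma adjusted p 0.895 and 0.422).

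Polyamine transporters changed in different directions. Atp13a3, a P-type ATPase linked to polyamine uptake, rose by 0.78 ± 0.11 (limma adjusted p 0.000215). Atp13a2, the lysosomal polyamine exporter, fell, with values of -0.45, -0.57 and -0.52 on the IL-18 arrays against 0.54, 0.60 and 0.45 on the unstimulated arrays. Its log2 change was -1.04 ± 0.08 (limma adjusted p 2.62e-06). Slc18b1, a vesicular polyamine transporter, fell with -0.38 ± 0.08 (adjusted p 0.00391) and Azin2, the second antizyme inhibitor, with -0.36 ± 0.10 (adjusted p 0.0147). The call of Azin2 was lost in 4 of the 6 fits that left out an array, at adjusted p of up to 0.0595. Oaz3, Sat2, Satl1 and Agmat did not pass, with changes between -0.20 and -0.01. Agmat, at -0.20, passed with array weights (limma adjusted p 0.048) and when unstimulated replicate 2 was left out (0.0368).

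Spermidine is also the donor for hypusine, a modified amino acid that the translation factor eIF5A needs in order to work. Of the 4 genes of that step, 3 rose and Eif5a2, a second eIF5A gene, did not pass (-0.22 ± 0.11, limma adjusted p 0.151), where 19.7% of all genes rose. Eif5a rose by 0.70 ± 0.08 (adjusted p 6.99e-05). Dhps and Dohh, the enzymes that build hypusine in turn, rose by 0.55 ± 0.09 and 0.54 ± 0.09 (limma adjusted p 0.000629 and 0.000581). The median of the list was 0.54.

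Each aminopropyl transfer by Srm or Sms leaves methylthioadenosine, which the salvage pathway returns to methionine. Of 10 listed genes of the methionine cycle and this salvage, 8 were measured. Mat2a was listed for no probe set, and Ahcy was read only by probe sets with several symbols. The median change of the 8 was 0.31. Of them 5 rose, 1 fell and 2 did not pass, where 19.7% of all genes rose and 16.7% fell. Mtap, which performs the first salvage step, had values of 0.41, 0.59 and 0.56 on the IL-18 arrays, against -0.63, -0.41 and -0.52 on the unstimulated arrays. Its log2 change was 1.04 ± 0.09 (limma adjusted p 5.39e-06). The genes of the next 3 steps also rose, Mri1 by 0.69 ± 0.10, Apip by 0.58 ± 0.08 and Enoph1 by 0.34 ± 0.08 (limma adjusted p at most 0.00583). Adi1, whose enzyme follows them, did not pass (-0.16 ± 0.11), except without IL-18 replicate 3 (-0.28, limma adjusted p 0.0446). Mtr, methionine synthase, rose by 0.28 ± 0.09 (limma adjusted p 0.0288), a call lost in 4 of the 6 fits without an array (adjusted p up to 0.107). Mat2b, a regulatory subunit of the enzyme that makes S-adenosylmethionine, fell with -0.32 ± 0.09 (limma adjusted p 0.0203), and 2 of those 6 fits lost the call, without IL-18 replicate 2 or 3 (adjusted p 0.0667 and 0.0558).

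**Figure D4:**
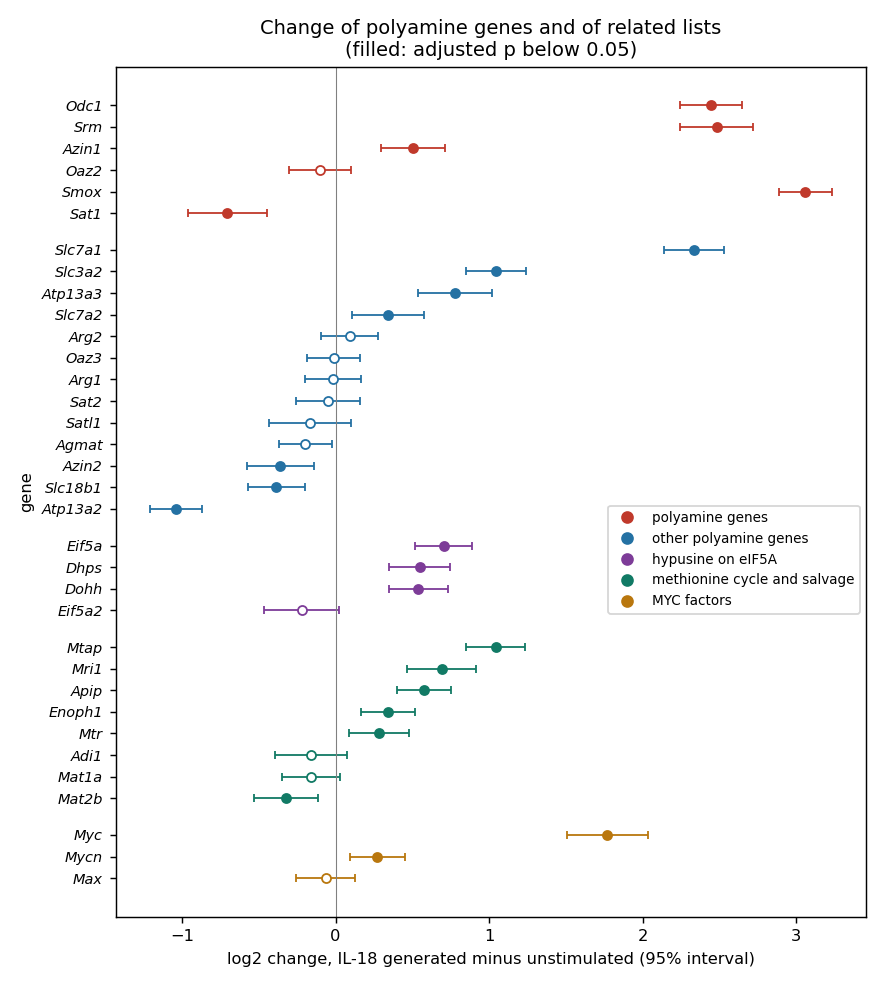
Log2 change (IL-18 generated minus unstimulated) with its 95% interval for the 6 polyamine genes and the measured genes of 4 related lists, 1 gene per line, with filled points for an adjusted p below 0.05. Smox, Srm, Odc1 and Slc7a1 lie beyond 2, Myc lies at 1.77, and all other genes lie between -1.04 and 1.04.

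MYC factors were included because Odc1 is a textbook target gene of MYC. Myc had values of 0.78, 0.70 and 0.99 on the IL-18 arrays, against -0.70, -0.996 and -1.14 on the unstimulated arrays. Its log2 change was 1.77 ± 0.12 (limma adjusted p 1.37e-06). Mycn changed by 0.27 ± 0.08 (limma adjusted p 0.0232), a call that was lost in 4 of the 6 fits without an array (adjusted p up to 0.0968). Max, the partner of MYC proteins, did not pass (-0.06 ± 0.09). The part of Myc in the change of Odc1 was not tested.

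By Euclidean distance over the 6 arrays, the genes nearest to Odc1 were Mfsd2a (distance 0.19), a lipid transporter, Ppa1 (0.23), an inorganic pyrophosphatase, and Ccr7 (0.24), a chemokine receptor. Srm was the next, at rank 4 of all genes (0.26), whereas Smox, with its larger change, was at rank 77 (0.76). Those nearest to Sat1 were Lrrk2 (0.17), Synj1 (0.19) and Elf2 (0.22), with log2 changes between -0.76 and -0.68. This likeness rests on 6 arrays in 2 groups and follows mostly from the size of each gene's change.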

How the data were processed

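The deposited table gives 28815 probe sets on 6 arrays, as processed by the authors. Its values were read as log2 from their range, since the authors state no base, summarization or normalization in the sources used. Every probe set has a median of 0 over the arrays (departure from 0 at most 5e-07), and array medians over genes lay between -0.025 and 0.039, so nothing further was normalized. Depth is not defined for arrays, and their number limits the precision. The limma p-values set the difference between groups against the spread among these 6 arrays within their groups. That spread is moderated by a variance estimate shared over all genes.

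Per the platform's annotation table, 21788 probe sets had 1 symbol, 1597 had several and 5430 were not listed. A gene was the mean of its single-symbol probe sets. The test was limma's (version 3.58.1 under R 4.3.3) with lmFit and eBayes, without trend or covariate, and p-values were adjusted over 19943 genes by Benjamini-Hochberg. A gene rose or fell at an adjusted p below 0.05. The procedure was also run on simulated independent normal noise, with known changes in far fewer genes than were called here. That run checks the code and lends no support to the calls in these data. Other steps used Python 3.11.15, pandas 2.3.3, numpy 2.4.6 and matplotlib 3.10.9. The members and lists, and the rule to name all members and up to 4 passing genes per direction in each related list, were chosen with earlier results of these data known. Mtr, the fifth in its list, was named after its value was seen, as were marker genes given as examples. The differences between pairs of members were not part of the planned comparisons. Alternatives covered variance options, normalization, array weights, probe sets as features, the call rule, the replicate block and leaving out each array.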

Additional observations from a re-analysis of the deposited data

Results flagged for a closer look

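Probe sets that carry several gene symbols were left out of the comparison, and 2 of them, which the annotation gives to both Sms and Gm8234, held a signal above that of the unstimulated arrays. In a fit over all 28815 probe sets, chosen after seeing the data, probe set 10604844 changed by 0.93 ± 0.07 (limma adjusted p 1.81e-05) and probe set 10607524 by 0.88 ± 0.07 (limma adjusted p 2.43e-05). Their values were 0.39 to 0.43 on the IL-18 arrays and -0.57 to -0.39 on the unstimulated arrays. The signal cannot be assigned to either gene. The 2 probe sets given to both Oaz1 and Oaz1-ps had changes of -0.04 ± 0.07 each (limma adjusted p 0.710 and 0.703).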

How the results depend on the processing

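Odc1, Srm, Smox and Azin1 rose, Sat1 fell and Oaz2 did not pass in every fit with other variance options, quantile normalization, arrays centred on their medians, array weights, probe sets as features or the replicate block, and without each array in turn. Quantile normalization of the centred values gave changes of 2.85 for Odc1, 2.95 for Srm and 3.68 for Smox, larger than with the values as deposited. Leaving out an array gave changes of 2.38 to 2.52 for Odc1, 2.37 to 2.56 for Srm, 3.03 to 3.11 for Smox, 0.44 to 0.60 for Azin1, -0.83 to -0.59 for Sat1 and -0.19 to -0.02 for Oaz2. Under both stricter rules, a log2 change of at least 1 beside the adjusted p and limma's treat test against 1, Azin1 (0.51) and Sat1 (-0.71) were no longer called by construction, leaving 3 polyamine genes higher and 0 lower. Over all genes, 3935 rose and 3332 fell. The log2 threshold left 721 and 647, and treat 313 and 328. In the related lists the log2 threshold left 2 other polyamine genes higher and 1 lower, 0 hypusine genes, 1 methionine gene higher and 0 lower, and 1 MYC factor. Treat left 1 and 0, 0, 0 and 0, and 1 in the same order. Without each array in turn, 0 to 2 methionine genes fell (0 without IL-18 replicate 2, 2 without unstimulated replicate 2) and 1 to 2 MYC factors rose (1 without IL-18 replicate 1 or 2 or unstimulated replicate 1 or 3). Among markers, B cell calls dropped to 2 with centred arrays, 3 with quantile normalization and 2 or 3 in 5 of the 6 fits without an array, against 5, and the cause was not tested. Same-numbered arrays shared only a number: their deviations from the group means correlated at 0.238, 0.007 and -0.02 over genes, and not every array correlated best with its own number. With the replicate block 3949 genes rose and 3330 fell, and 4 polyamine genes rose and 1 fell. The number of arrays and the missing levels limit small changes such as that of Oaz2.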
